A study of Homo sapiens with 8 samples.

Results

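The angiopoietins, the vascular endothelial growth factors (VEGFs) and their receptors were followed in HEL cells, a human erythroleukaemia line whose growth depends on an activated JAK2 kinase. The family was taken as 10 genes. They comprise the ligands ANGPT1 and ANGPT2 with the receptors TEK and TIE1, the ligands VEGFA, VEGFB, VEGFC and PGF, and the receptors FLT1 and KDR. A probe set was selected on its measured values: of those annotated to a member alone, the one with the highest mean signal over the 8 arrays was used, and each member turned out to have a single one. The 10 members stand among 17958 genes with a probe set of their own, and 7 of them were among the 12570 genes bright enough to be tested. The family itself was chosen with the low ANGPT2 signals under LY2784544 and under the combination already known, so the differences of ANGPT2 between arrays with and without LY2784544 are given below as a description, with no p.

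The groups were the combination of LY2784544 and GRN163L, LY2784544 alone (0.5 µM), GRN163L alone (20 µM), and a DMSO control, each for 48 h. LY2784544 inhibits the JAK2 kinase, and GRN163L is an oligonucleotide that blocks the RNA template of telomerase. The doses in the combination are not restated in the labels. Both experiments held every one of the 4 groups once, which gives 2 arrays per group, and all cells came from 1 line. The values are log2 RMA signals of total RNA, so that a difference of 1 is a doubling of the signal. Signals of different genes come from different probes and are not set against each other.

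Angiopoietins are secreted ligands of the TEK receptor kinase (also called TIE2). ANGPT1 activates TEK, ANGPT2 can block or weakly activate it depending on context, and TIE1 is a partner receptor without a firmly established ligand of its own. VEGFA signals through KDR (VEGFR2) and binds FLT1 (VEGFR1) more tightly, VEGFB and PGF bind FLT1, and VEGFC acts mainly on FLT4 and also on KDR. These genes are best known from endothelium, but blood stem cells, megakaryocytes and leukaemic cells also express several of them, and VEGFA is a classic target of hypoxia-inducible factor (HIF).

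The array medians over all probe sets lay between 5.07 and 5.25. Among the markers of the line, all 4 shared erythroid and megakaryocyte factors were above the brightness filter, GATA1 at 10.23 to 10.70, and the megakaryocyte integrin ITGA2B was at 11.13 to 11.46. Of 15 measured endothelial markers, 3 were below the filter: VWF, EMCN and CLEC14A. PECAM1, which blood cells also express, was at 10.71 to 11.34 and CDH5 at 6.57 to 8.05. The summed level of the endothelial list, as a mean per gene, was 6.52 to 6.56 with the combination, 6.35 to 6.46 with LY2784544, 6.42 to 6.53 with GRN163L and 6.53 to 6.66 in control. The array values of these genes came from a culture of 1 cell type, and in such bulk RNA fewer cells and less RNA per cell cannot be told apart.

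The stretches just before the start sites of FLT1 and KDR are shown as the receptors of VEGFA among the members, and the values of both are given below. They are the 250 bases before the annotated start, from RefSeq on build GRCh38.p14, read 5′ to 3′ on the gene's own minus strand, at chr13:28495129-28495378 for FLT1 and chr4:55125596-55125845 for KDR. Capitals mark the match to GCGTG, a core of the HIF response element, which lies on the opposite strand and so reads CACGC here.
FLT1: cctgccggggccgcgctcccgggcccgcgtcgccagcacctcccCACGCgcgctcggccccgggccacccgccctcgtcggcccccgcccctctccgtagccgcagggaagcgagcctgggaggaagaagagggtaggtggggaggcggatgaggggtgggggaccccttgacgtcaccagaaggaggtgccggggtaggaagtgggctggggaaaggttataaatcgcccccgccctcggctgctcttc
KDR: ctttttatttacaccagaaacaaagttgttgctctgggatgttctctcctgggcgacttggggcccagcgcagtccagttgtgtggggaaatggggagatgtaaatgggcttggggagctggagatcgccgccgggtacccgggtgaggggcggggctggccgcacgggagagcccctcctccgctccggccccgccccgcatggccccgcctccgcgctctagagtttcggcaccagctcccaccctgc
Known motifs were searched on both strands in the windows of the 7 members with an entry, 9 windows in all. The STAT motif TTCNNNGAA, the HIF core ACGTG and the ETS motif CCGGAA were in none of them. Over all 35116 windows of the same length the shares with a match were 6.57%, 18.5% and 14.5% for these motifs. GCGTG was found in 4 members, VEGFB, VEGFC, PGF and FLT1, against 32.2% of all windows, and the GATA motif AGATAA in TEK alone, against 9.17%. These counts are of members and the shares are of windows. TEK and PGF have several windows each, and not all of theirs held the match. The STAT motif reads the same on both strands, and the GCGTG and AGATAA matches lay in different members. In FLT1 the match begins 206 bases before the start. A match is only a run of letters, and these 250 bases are a small part of the sequence around a gene.

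ANGPT2 had the widest range of signals in the family. ANGPT2 was at 4.40 and 4.60 with the combination, at 5.42 and 4.83 with LY2784544, at 6.57 and 7.50 with GRN163L and at 7.82 and 7.10 in control, in experiments 1 and 2. The 4 arrays with LY2784544 lay at 4.40 to 5.42, below all 4 arrays without it, at 6.57 to 7.82. Such a separation downwards was found in 8.66% of all tested genes. With the combination ANGPT2 was close to the filter level of 4.37, under which 30% of genes lie. The difference from control was -2.96 with the combination and -2.34 with LY2784544, which are 7.78-fold and 5.05-fold lower signals. Against GRN163L alone the combination differed by -2.54. The average over the pairs with and without LY2784544 was -2.44. It was -2.29 in experiment 1 and -2.59 in experiment 2.

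With GRN163L alone, ANGPT2 lay on opposite sides of control in the 2 experiments. The difference was -1.25 in experiment 1 and 0.40 in experiment 2, with a mean of -0.43 that did not pass the test (limma, adjusted p = 0.995), and without the experiment 1 array of GRN163L it was 0.04. The combination was below LY2784544 alone in both experiments, by -1.02 and -0.23 (mean -0.63, adjusted p = 0.483). The interaction, which is the change that the second agent makes beyond the sum of both on the log2 scale, was -0.20 with an interval of -1.32 to 0.92 (adjusted p = 0.999). In the gene table the ANGPT2 gene overlaps MCPH1, which has no probe set of its own here, so the signal of that neighbour could not be checked.

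A gene was called where its limma p, adjusted by Benjamini-Hochberg over all 12570 genes, was below 0.05. At this threshold 160 genes (1.27%) changed with LY2784544 against control, 436 (3.47%) with the combination against control, 39 (0.31%) with the combination against LY2784544 and 68 (0.541%) with the combination against GRN163L. In the average effect of LY2784544, which sets 4 arrays against 4, 560 genes (4.46%) changed and 444 of them fell. In the average effect of GRN163L 48 genes (0.382%) changed. GRN163L against control gave 0 genes (0%), with 595 at an unadjusted p below 0.05 and a smallest adjusted p of 0.201, and the interaction gave 0 genes (0%), with 464 at an unadjusted p below 0.05. These counts rest on few arrays. LY2784544 against control gave 0 genes without the experiment 2 array of control and 20 without its experiment 1 array, and the combination against control gave 57 and 92. The combination against GRN163L gave 0 without the experiment 1 array of GRN163L and 2 without its experiment 2 array. The average effect of LY2784544 gave 123 and 152 without these, and that of GRN163L 4 and 0. With the experiments paired in a replicate block the counts were higher, at 1382 for the combination against control, 345 for LY2784544 against control and 1305 for the average effect of LY2784544. Besides ANGPT2, whose LY2784544 differences were known when the family was chosen, ANGPT1 was the only member of the 7 tested that was called, in the average effect of LY2784544.

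ANGPT1, the activating ligand of TEK, was also lower on the arrays with LY2784544, by a smaller amount. ANGPT1 was at 8.49 and 8.72 with the combination, at 8.65 and 8.35 with LY2784544, at 9.09 and 9.14 with GRN163L and at 9.36 and 9.03 in control. The 4 arrays with LY2784544 lay at 8.35 to 8.72 and did not overlap the 4 without it, at 9.03 to 9.36. Among all tested genes, 8.66% had all 4 arrays with LY2784544 below all 4 without it. The average effect was -0.60 (SE 0.13, interval -0.90 to -0.30, adjusted p = 0.0406), a 1.52-fold lower signal, and it was -0.66 and -0.55 in the 2 experiments. The single comparisons pointed the same way without passing the test: -0.59 with the combination against control (adjusted p = 0.111), -0.70 with LY2784544 against control (adjusted p = 0.135) and -0.51 with the combination against GRN163L (adjusted p = 0.273). The average effect of GRN163L on ANGPT1 was 0.01, with an interval of -0.29 to 0.31. The call for ANGPT1 is close to the threshold. It was kept in 1 of 8 fits that left out an array, that without the experiment 2 array of the combination, and was lost in the other 7, with values of -0.69 to -0.52 and adjusted p up to 0.143. It was also lost with the arrays set to one median (-0.46, adjusted p = 0.0923) and with quantile normalization of the tested genes (-0.51, adjusted p = 0.0724).

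**Figure D1:**
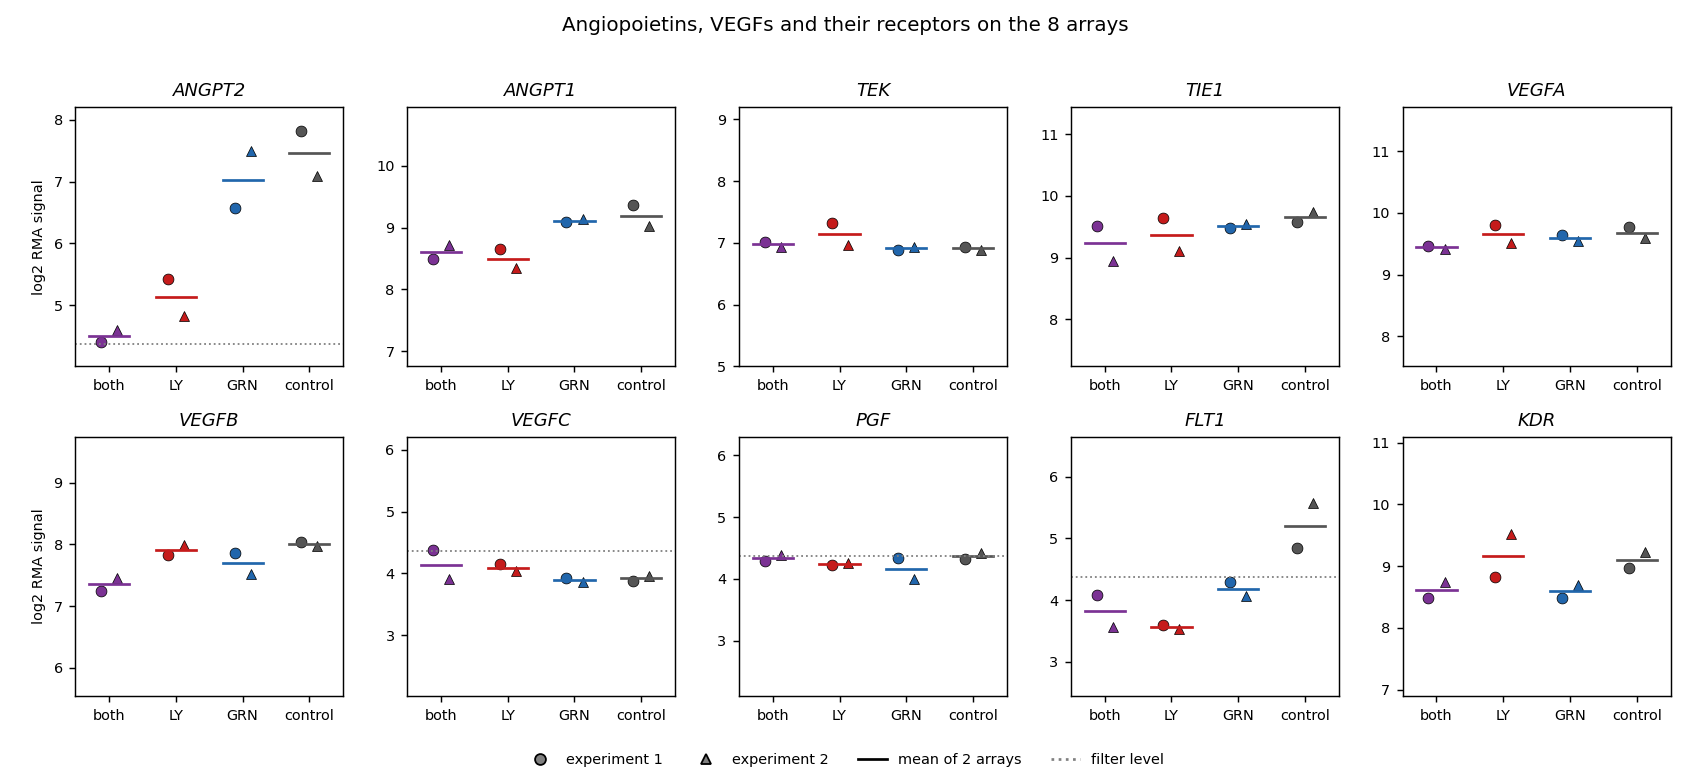
Log2 RMA signals of the 10 members on the 8 arrays, for the combination (both), LY2784544 (LY), GRN163L (GRN) and control. Circles are experiment 1, triangles experiment 2, bars the mean of 2 arrays and the dotted line the filter level of 4.37. ANGPT2 lies at 4.40 to 5.42 on the arrays with LY2784544 and at 6.57 to 7.82 on those without it, and FLT1 is highest in control.

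The receptors of the angiopoietins spanned less over the 8 arrays than the ligands, 0.44 for TEK and 0.80 for TIE1, with 1.01 for ANGPT1 and 3.42 for ANGPT2. TEK was at 7.02 and 6.93 with the combination, at 7.32 and 6.97 with LY2784544, at 6.88 and 6.94 with GRN163L and at 6.94 and 6.88 in control. Both arrays of LY2784544 were above the GRN163L and control arrays, and the other groups overlapped. Its average LY2784544 effect was 0.15, with an interval of -0.12 to 0.42 (adjusted p = 0.477), so a fall of TEK as large as that of ANGPT1 lies outside the interval. TIE1 was at 9.52 and 8.94 with the combination, at 9.64 and 9.11 with LY2784544, at 9.48 and 9.55 with GRN163L and at 9.58 and 9.74 in control. The low TIE1 values were both from experiment 2: the average LY2784544 effect was -0.62 there and 0.05 in experiment 1, with a mean of -0.29 (adjusted p = 0.352). The largest TIE1 difference from control was -0.43, with the combination (adjusted p = 0.315).

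VEGFA, the main ligand of KDR, spanned 0.39 over the 8 arrays, and none of its differences passed the test. VEGFA was at 9.47 and 9.42 with the combination, at 9.81 and 9.51 with LY2784544, at 9.65 and 9.54 with GRN163L and at 9.77 and 9.59 in control. Both combination arrays were the lowest of the 8, and the other groups overlapped. LY2784544 against control was -0.02, with an interval of -0.40 to 0.36 (adjusted p = 0.976), and turned to 0.083 with one median for all arrays. The combination against control was -0.24, with an interval of -0.61 to 0.14 (adjusted p = 0.428). The average effect was -0.09 for LY2784544, with an interval of -0.35 to 0.18, and -0.15 for GRN163L, with an interval of -0.42 to 0.12.

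Other HIF targets were lower with LY2784544 in the same arrays. Of 16 listed genes other than VEGFA, 14 were measured and tested. All 14 had an average LY2784544 effect below 0 and 9 fell past the threshold, at which 4.46% of all tested genes changed. Their median was -0.99, against -0.06 over all tested genes, and they ranged from -2.58 to -0.28. ERO1A, an oxidase of the endoplasmic reticulum, was at -2.07 (adjusted p = 0.000914), the mitophagy receptor BNIP3 at -2.58 (adjusted p = 0.00237), the collagen hydroxylase P4HA1 at -2.17 (adjusted p = 0.00287) and the repressor BHLHE40 at -1.93 (adjusted p = 0.00505). Each of these 4 stayed past the threshold in all 8 fits without an array. The estimates of 12 of the 14 were below -0.35, the lower end of the VEGFA interval, and the other two, MXI1 at -0.30 and PFKFB3 at -0.28, named after their values were seen, were inside it. The list was drawn up with falls of several of its members already known, and the difference between VEGFA and the list was not tested. BNIP3 was at -3.29 in experiment 1 and -1.86 in experiment 2, and VEGFA at -0.07 and -0.10.

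**Figure D2:**
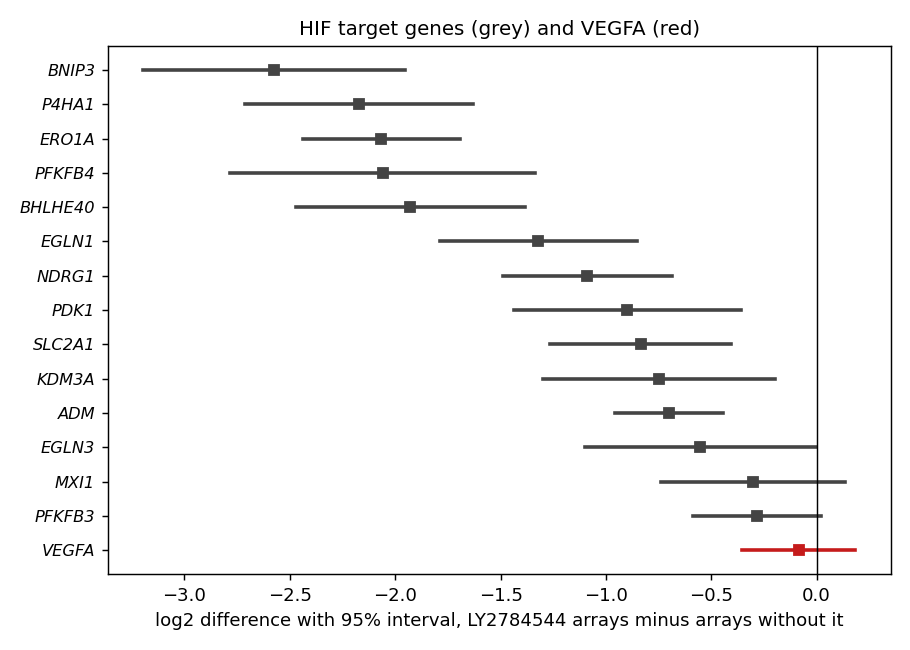
Average LY2784544 effect (log2 difference, 4 arrays with LY2784544 minus 4 without) with its 95% interval for 14 HIF target genes in grey and VEGFA in red. BNIP3 is lowest at -2.58, and VEGFA at -0.09 has the estimate nearest 0.

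VEGFB, a ligand of FLT1, was lowest with the combination. VEGFB was at 7.25 and 7.46 with the combination, at 7.83 and 7.99 with LY2784544, at 7.86 and 7.52 with GRN163L and at 8.04 and 7.98 in control. Both combination arrays were below the 6 others. The combination against control was -0.66, with an interval of -1.05 to -0.26 (adjusted p = 0.0763). It became a call with the experiments paired in a replicate block (adjusted p = 0.0463), in which 1382 of all genes were called. With the arrays set to one median it was -0.48 (adjusted p = 0.147) and with quantile normalization -0.50 (adjusted p = 0.138). The combination against LY2784544 was -0.56 (adjusted p = 0.227) and against GRN163L -0.34 (adjusted p = 0.422). The average effect was -0.44 for GRN163L (adjusted p = 0.16) and -0.22 for LY2784544 (adjusted p = 0.332), and the interaction was -0.24 with an interval of -0.80 to 0.33.

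The ligands VEGFC and PGF were dim on every array. VEGFC was at 4.37 and 3.90 with the combination, at 4.15 and 4.03 with LY2784544, at 3.93 and 3.86 with GRN163L and at 3.88 and 3.96 in control. PGF was at 4.29 and 4.39 with the combination, at 4.22 and 4.25 with LY2784544, at 4.34 and 3.99 with GRN163L and at 4.32 and 4.42 in control. Their means over the 8 arrays, 4.01 and 4.28, were under the filter level, and the 8 values spanned 0.51 and 0.43. In a fit without the filter neither gene was called in any of the 8 comparisons.

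KDR, the main signalling receptor for VEGFA, was lower on the arrays with GRN163L, by an amount that did not pass the test. KDR was at 8.48 and 8.74 with the combination, at 8.82 and 9.52 with LY2784544, at 8.49 and 8.70 with GRN163L and at 8.97 and 9.23 in control. The 4 arrays with GRN163L lay at 8.48 to 8.74 and the 4 without it at 8.82 to 9.52, and 3.31% of all tested genes had such a separation downwards. The average effect of GRN163L was -0.53, with an interval of -0.92 to -0.14, and it did not pass the adjusted test (adjusted p = 0.207). The parts of that average were alike in size, -0.51 for GRN163L against control and -0.56 for the combination against LY2784544. The combination against control, which also holds the change with LY2784544, was at -0.49. None of these passed the test. The average effect of LY2784544 on KDR was 0.04 with an interval of -0.35 to 0.43. KDR was higher in experiment 2 than in experiment 1 in all 4 groups, by a mean of 0.36 (adjusted p = 0.151 with the replicate block).

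FLT1, which binds VEGFA tightly and signals weakly, was highest in control. FLT1 was at 4.08 and 3.56 with the combination, at 3.59 and 3.53 with LY2784544, at 4.30 and 4.07 with GRN163L and at 4.84 and 5.57 in control. Both control arrays were above the 6 treated ones and were the only 2 above the filter level of 4.37, so its mean of 4.19 left it out of the test. The tests on FLT1 therefore come from a fit on all 17958 genes, in which 2.13% were called with the combination against control, 0.813% with LY2784544 against control and 2.98% in the average effect of LY2784544. In that fit FLT1 was at -1.39 with the combination against control (SE 0.26, adjusted p = 0.0407), at -1.65 with LY2784544 against control (SE 0.26, adjusted p = 0.0333) and at -1.01 in the average effect of LY2784544 (adjusted p = 0.0313). GRN163L against control was -1.02 (adjusted p = 0.982) and the interaction 1.28 (adjusted p = 0.951). The calls were kept in 1 of 8, 2 of 8 and 2 of 8 fits without an array, in the same order of comparisons, with values of -1.75 to -1.02, -2.01 to -1.28 and -1.19 to -0.82 and adjusted p up to 0.153, 0.142 and 0.126. The first was kept only without the experiment 1 array of control. The treated arrays lay in the dim range, in which RMA compresses differences.

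**Figure D3:**
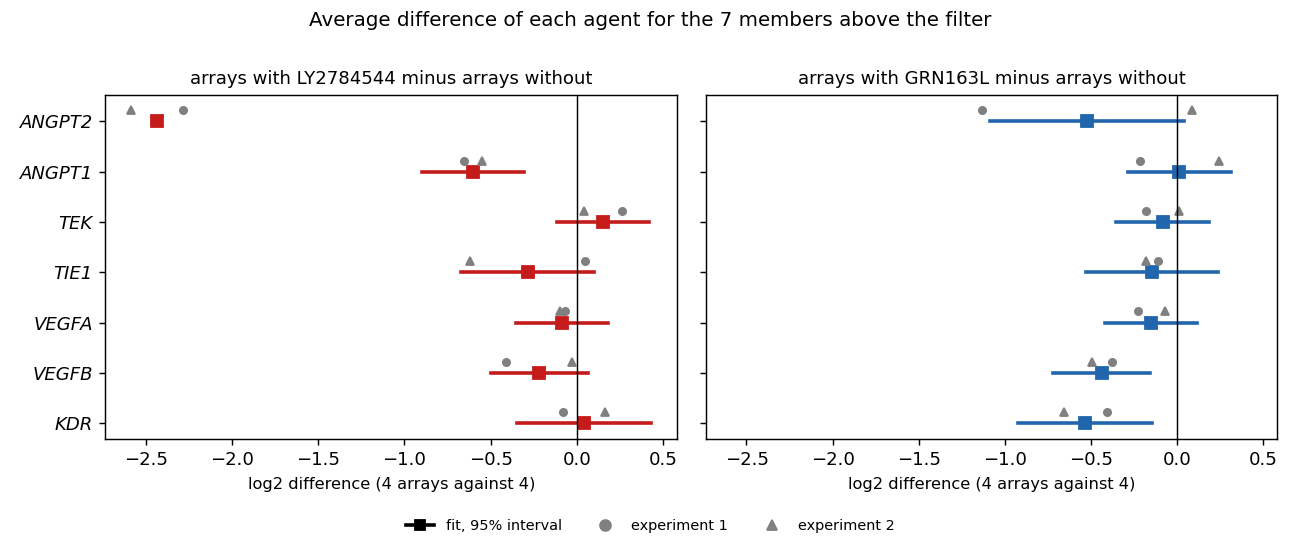
Average log2 difference of each agent (squares, with 95% intervals except for ANGPT2 with LY2784544) for the 7 members above the filter, with the values of experiment 1 (circles) and experiment 2 (triangles). With LY2784544, ANGPT2 is at -2.44 and ANGPT1 at -0.60, and the intervals of TEK, TIE1, VEGFA, VEGFB and KDR include 0. With GRN163L, KDR is at -0.53 and VEGFB at -0.44.

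Across the 7 members above the filter, 5 had an average LY2784544 effect below 0, with a median of -0.22. Over all tested genes 59.7% were below 0 and the median was -0.06. For GRN163L 6 of 7 were below 0, with a median of -0.15, and over all tested genes 51.8% were below 0, with a median of -0.01. None of the 7 was called in the average effect of GRN163L, in which 0.382% of all genes were.

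Further ligands, receptors and co-receptors of both systems were measured on the same arrays. Of 10 genes, 7 were tested, and ANGPT4, VEGFD and SVEP1 were below the filter. In the average effect of LY2784544 1 of the 7 (NRP1) was called higher and 1 (FLT4) lower, and 4.46% of all tested genes were called. The median was 0.10 against -0.06 over all tested genes. NRP1, a co-receptor that binds VEGFA together with KDR, was at 4.83 and 4.72 with the combination, at 5.44 and 4.83 with LY2784544, at 4.23 and 4.13 with GRN163L and at 3.92 and 4.21 in control. All 4 arrays with LY2784544 were above all 4 without it, by 0.83 on average. The share of all genes with such a separation upwards was not counted. The call of NRP1 was kept in 4 of 8 fits without an array. It was lost without the experiment 1 arrays of control, GRN163L and the combination or the experiment 2 array of GRN163L. The 4 NRP1 arrays without LY2784544 were all below the filter level of 4.37. With a mean of 4.54, NRP1 entered the test only through its arrays with LY2784544. Its difference is therefore given as a description, with no p, and its call is no test of it. The size of its rise rests on dim values, in which RMA compresses differences. NRP2, a related co-receptor that was chosen after its values were seen, was at 0.60 in the average effect of LY2784544. The same limit held for NRP2, with a mean of 4.44.

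FLT4, the main receptor of VEGFC, was lower with LY2784544. FLT4 was at 7.10 and 6.84 with the combination, at 7.46 and 7.41 with LY2784544, at 7.64 and 7.70 with GRN163L and at 7.72 and 7.94 in control. The 4 arrays with LY2784544 were all below the 4 without it, as in 8.66% of all tested genes. The average effect was -0.55 (adjusted p = 0.0377) and the combination against control -0.86 (adjusted p = 0.0311). The first call was kept only without the experiment 1 array of the combination, and the second only without either array of LY2784544, with values of -0.61 to -0.48 and -0.99 to -0.73 over the fits without an array. Both were also lost with the arrays set to one median (-0.40, adjusted p = 0.118, and -0.69, adjusted p = 0.0776) and with quantile normalization (-0.41 and -0.69), and the second with only the groups compared in the fit (adjusted p = 0.0897).

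CD34, a sialomucin of blood progenitors and endothelium, was lower with GRN163L. CD34 was at 5.89 and 6.73 with the combination, at 8.64 and 8.79 with LY2784544, at 5.75 and 6.43 with GRN163L and at 7.41 and 7.13 in control. The 4 arrays with GRN163L were all below the 4 without it, as in 3.31% of all tested genes, and the LY2784544 arrays were the highest. The average effect of GRN163L was -1.79 (adjusted p = 0.0174) and the combination against LY2784544 -2.41 (adjusted p = 0.0251), kept in 4 of 8 and 3 of 8 fits without an array. The first was lost when any single control or GRN163L array was left out (values of -2.00 to -1.58), and the second when any single control or LY2784544 array or the experiment 1 array of the combination was (values of -2.83 to -1.99). With only the groups compared in the fit the second was lost too (adjusted p = 0.208). For LY2784544 against control CD34 was at 1.45 (adjusted p = 0.0699). Among the angiopoietin-like genes 3 of 8 were measured and only ANGPTL4 was tested, at -0.38 in the average effect of LY2784544 (adjusted p = 0.118).

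**Figure D4:**
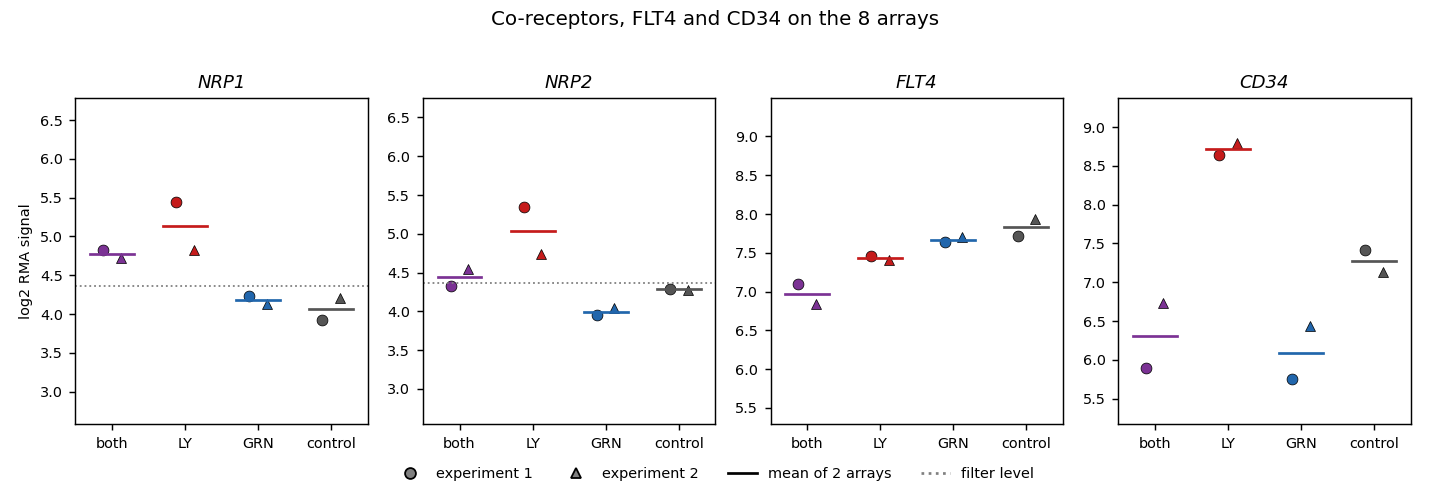
Log2 RMA signals of NRP1, NRP2, FLT4 and CD34 on the 8 arrays, for the combination (both), LY2784544 (LY), GRN163L (GRN) and control. Circles are experiment 1, triangles experiment 2, bars the mean of 2 arrays and the dotted line the filter level of 4.37. NRP1 is highest and FLT4 lowest on arrays with LY2784544, and CD34 is lowest on arrays with GRN163L.

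Targets of STAT5, the transcription factor that JAK2 activates, were read beside the family. Of 10 listed genes 9 were tested, all 9 had an average LY2784544 effect below 0, and 4 fell, with a median of -0.55 against -0.06 over all tested genes. Of all tested genes 4.46% changed in that effect. The list was chosen with earlier results of these data known, so its counts and medians are a description. In the average effect of GRN163L, in which 0.382% of all genes were called, all 9 were also below 0 and 1 fell, with a median of -0.27 against -0.01. There SOCS3 was at -1.62. In the average effect of LY2784544 the 4 genes that fell were the following. SOCS3, a feedback inhibitor of JAK kinases, was at -1.33 (adjusted p = 0.00176), the kinase PIM1 at -0.87 (adjusted p = 0.00627), the repressor ID1 at -1.07 (adjusted p = 0.0115) and the kinase PIM2 at -0.45 (adjusted p = 0.0445). SOCS3 and PIM1 kept the call in 8 of 8 fits without an array, ID1 in 6 and PIM2 in none. PIM2 was also lost with one median (-0.31) and with quantile normalization (-0.40). SOCS3 was at 5.23 and 5.58 with the combination, at 7.35 and 7.10 with LY2784544, at 7.02 and 6.85 with GRN163L and at 8.29 and 8.41 in control. The difference of the combination from LY2784544 was -1.82 for SOCS3 (adjusted p = 0.00531), beside -0.63 for ANGPT2, and the genes were not tested against each other.

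Some markers of cell type differed on the same arrays as the angiopoietins, and their part in the results was not tested. Of 7 tested megakaryocyte markers 2 rose in the average effect of LY2784544, the platelet chemokines PPBP (2.84) and PF4 (1.58), and 6 of 7 were above 0. Of all tested genes 4.46% were called in that effect and 59.7% were below 0. The mean over the megakaryocyte list was at 9.94 and 10.14 with the combination, at 9.60 and 9.79 with LY2784544, at 9.12 and 9.06 with GRN163L and at 9.22 and 9.02 in control. PPBP and PF4 spanned 3.55 and 2.51 over the 8 arrays, and the other genes of the list from 0.33 (ITGA2B) to 1.25 (TUBB1). The differences in this mean thus rest mainly on PPBP and PF4. Of 10 listed erythroid markers 4 were measured and none was called, HBZ, an embryonic globin, at -1.58 and the factor KLF1 at -0.16 in the average effect of LY2784544. Their mean was at 8.25 and 8.69 with the combination, at 8.47 and 9.37 with LY2784544, at 9.30 and 8.50 with GRN163L and at 9.48 and 9.20 in control. For HBZ the arrays of LY2784544 alone were at 5.69 and 8.93, so its average effect has a wide spread. Of 12 tested endothelial markers, PLVAP, a protein of endothelial pores, fell by 1.48 on average with LY2784544 (adjusted p = 0.00316), and MMRN1, a platelet and endothelial matrix protein, rose by 0.90 (adjusted p = 0.00836), both with the call kept in 8 of 8 fits without an array.

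The genes whose 8 values ran most like those of a member were looked up for the 3 tested members that span at least 1 log2 unit. For ANGPT2 they were GYG1 (Pearson r = 0.986), RBM34 (r = 0.985) and GGT5 (r = 0.984). For ANGPT1 they were CIPC (r = 0.977), COX10 (r = 0.976) and RASGRP1 (r = 0.973), and for KDR TUBA1C (r = 0.982), TRIM28 (r = 0.981) and LMO7 (r = 0.972). The 8 points of each correlation share the arrays, their normalization and the treatment groups, and with 12570 genes searched they describe these arrays only. GYG1, which primes glycogen synthesis, was at 8.28 and 8.32 with the combination, at 8.49 and 8.33 with LY2784544, at 8.76 and 8.83 with GRN163L and at 8.96 and 8.72 in control, so it followed ANGPT2 with a far smaller span.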

How the data were processed

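Total RNA (150 ng per array) of HEL cells was measured on 8 arrays in 4 groups, taken from the labels. The deposited values are log2 signals made by the authors with RMA in Affymetrix Expression Console, per the submitters' processing notes. The program version, the genome build and the number of RMA runs were not given in the sources used. Log base 2 was inferred from RMA and from the range of values. RMA equalises the arrays and compresses dim signals.

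Gene names came from the platform annotation, for probe sets with 1 gene only (19181 of 33297). Where a gene had several, the one with the highest mean was used. Genes with a mean below the 30th percentile (4.37) were left out of the tests. A model of 4 group means was fitted over 12570 genes with limma 3.58.1 (R 4.3.3; lmFit and eBayes, 4 residual and 4.65 prior degrees of freedom) and 8 contrasts, each with Benjamini-Hochberg adjustment. It was tested on simulated data. The replicate numbers 1 and 2 in the labels were taken as experiments 1 and 2 that pair the arrays. Deviations from group means correlated within an experiment at r = 0.10 to 0.67. The main model leaves this pairing out, and the replicate block takes it in. The labels do not say whether experiments differ in culture or only in handling, so the p-values reflect the spread of these samples, which may be technical, and the number of arrays limits the precision. The 10 members and 11 gene lists were chosen with earlier results of these data known. Named list genes are those called, at most 4 per list and comparison, or else the 2 with the smallest p; the cell markers GATA1, ITGA2B, PECAM1, CDH5, VWF, EMCN and CLEC14A were picked after their values were seen. Alternatives were a replicate block, other filters, normalizations, probe set rules, moderation and samples, and leaving out each array. Sequences of VEGFA, ANGPT1 and ANGPT2 are not shown.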

Additional observations from a re-analysis of the deposited data

How the results depend on the processing

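The count of members called, which holds ANGPT2, depended on how dim genes were handled. ANGPT2 lies near the middle of all genes in brightness (percentile 49.9), so a filter at the 50th percentile leaves it out by construction. With that filter the count was 0 for the combination against control, for LY2784544 against control and for the combination against GRN163L, and 1 for the average effect of LY2784544. With no filter FLT1 joined, and the count was 2 for the combination against control and 2 for LY2784544 against control. With the experiments paired in a replicate block it was 2 for the combination against control, where VEGFB joined. Median and quantile normalization each gave 1 for the average effect of LY2784544, where ANGPT1 was lost. The fall of ANGPT2 with LY2784544 was known when the family was chosen, so its place in these counts of members called is no test of it. VEGFA with LY2784544 against control turned to 0.083 and 0.049 under median and quantile normalization and ranged between -0.17 and 0.13 without an array. Its average LY2784544 effect turned to 0.061 under median normalization. ANGPT2 ranged between -0.89 and 0.04 for GRN163L against control and between -0.67 and 0.27 for the interaction without an array. Setting the arrays to one median moves every difference up by 0.175 for the combination against control, 0.103 for LY2784544 against control, 0.19 for the combination against GRN163L and 0.146 for the average effect of LY2784544. Over the 66 named differences, 866 recomputed values kept their direction and side of the threshold, 176 kept the direction and lost the call, 1 gained it and 9 changed sign. Over all genes, the replicate block gave 201 calls for the combination against LY2784544, 212 for the combination against GRN163L and 282 for the average effect of GRN163L. The filter at the 50th percentile gave 70 for LY2784544 against control and 311 for the average effect of LY2784544. Median and quantile normalization gave 36 and 39 for the combination against GRN163L. With only the groups compared the counts were 153 for the combination against control, 79 for LY2784544 against control, 0 for the combination against LY2784544 and 6 for GRN163L against control. Without an array the counts were 57 to 538 for the combination against control, 0 to 212 for LY2784544 against control, 16 to 45 for the combination against LY2784544, 0 to 88 for the combination against GRN163L, 123 to 659 for the average effect of LY2784544, 0 to 89 for that of GRN163L and 0 to 8 for the interaction. The causes were not tested. The replicate block changed no other call of a member. Signals of FLT1, VEGFC and PGF near the filter level limit what can be said of them.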

Other observations

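Other angiogenic ligands and receptors also differed between the arrays. Of 14 tested genes of that list, 1 was called higher and 2 lower in the average effect of LY2784544, in which 4.46% of all tested genes were called. The median was -0.35 against -0.06 over all tested genes. APLNR, the apelin receptor, fell by 1.74 (adjusted p = 0.0301). It was at 6.05 and 6.40 with the combination, at 6.05 and 6.37 with LY2784544, at 8.39 and 7.51 with GRN163L and at 8.80 and 7.13 in control. The call was kept in 4 of 8 fits without an array. PDGFRB, a receptor for platelet-derived growth factor, fell by 0.57 (adjusted p = 0.0452), a call kept in 0 of 8 and lost with one median (-0.42, adjusted p = 0.117). ADAMTS1, a secreted protease that can bind VEGFA, was higher by 0.71, given as a description with no p. Its means in control (4.11) and with GRN163L (4.26) were below the filter level of 4.37. The mean was 4.45 with the combination and 5.33 with LY2784544 alone. ADAMTS1, with a mean of 4.54 over all arrays, thus entered the test only through LY2784544 alone, on which the rise mainly rests. ADAMTS1 was at 4.47 and 4.43 with the combination, at 5.22 and 5.44 with LY2784544, at 4.41 and 4.11 with GRN163L and at 4.06 and 4.16 in control. Its call was kept in 6 of 8 fits, but with the way it passed the filter the call is no test of it.

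KIT, the stem cell factor receptor, was low with both agents together. KIT was at 7.42 and 8.69 with the combination, at 11.12 and 10.58 with LY2784544, at 9.88 and 10.47 with GRN163L and at 10.29 and 10.28 in control. The combination differed from LY2784544 by -2.80 (adjusted p = 0.0284) and from control by -2.23 (adjusted p = 0.0241), each kept in 3 of 8 fits without an array, with values of -3.43 to -2.16 and -2.87 to -1.60. The combination arrays set these ranges, and both calls were lost with only the groups compared in the fit (adjusted p = 0.274 and 0.0542). Of 17 tested adaptors and kinases that act below VEGF and TIE receptors, SH2D2A, an adaptor known to bind KDR, fell with the combination. The difference was -1.67 against LY2784544 (adjusted p = 0.0283) and -1.10 against control (adjusted p = 0.0407), kept in 3 of 8 fits each. In these comparisons 0.31% and 3.47% of all tested genes were called. The call against control was lost with one median (adjusted p = 0.0639) and with quantile normalization (adjusted p = 0.0691), and both calls with only the groups compared. PIK3CD, a catalytic subunit of phosphoinositide 3-kinase, fell by 0.88 with the combination against control (adjusted p = 0.0397), kept in 2 of 8 and lost with one median (adjusted p = 0.0694) and with only the groups compared. None of 17 tested endothelial and blood transcription factors was called in any of the 8 comparisons. Over all tested genes the share called ran from 0% (GRN163L against control) to 4.46% (average effect of LY2784544). ETS1 was at -0.33 (adjusted p = 0.135) and GATA2 at -0.23 (adjusted p = 0.25) in the average effect of LY2784544.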
